A study of Mus musculus with 36 samples.

Results

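The miR-200 family and miR-205 are the miRs most closely tied to epithelial identity, and their counts were followed in lung endothelial cells (ECs), in the plasma of adult mice and in the medium conditioned by the cells. Members were all features named miR-200a, miR-200b, miR-200c, miR-141, miR-429 or miR-205, both arms included, which gave 12 of the 1907 miR features counted. In Prog-Tg mice the Cdh5-tTA driver (Cdh5TA), a transactivator under the endothelial VE-cadherin promoter, switches on a TetOp-LAG608G minigene, the human lamin A gene with the G608G mutation of Hutchinson-Gilford progeria. LA-Tg mice carry the same driver with the wild-type TetOp-LA minigene, and WT mice are wild-type littermates. All mice were kept on a C57BL/6J background to which the driver line had brought FVB alleles. Lung ECs came from pups (10 to 15 days old by the labels), selected on beads that bind ICAM-2, and were used at passage 3 for miR and mRNA. The medium was taken from cultures of such cells. The study's methods give passage 2 for the conditioned medium of its Ccl20 protein assay, and the passage behind these medium libraries is not settled. Plasma was from mice older than 25 weeks. Each genotype had 3 libraries of EC miR, 3 of EC mRNA, 3 of medium miR and 3 of plasma miR. Since the transgene acts in ECs, plasma miRs of these mice also include those of all other cells, and a change in cell number cannot be told apart from a change in RNA per cell in any of these bulk samples.

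A miR guides an Argonaute protein to messages that pair with its seed, bases 2 to 8 from the 5′ end, and pairing lowers the amount or the translation of these messages. The miR-200 family is transcribed in epithelia, where it holds down Zeb1 and Zeb2, repressors of E-cadherin, while Zeb1 and Zeb2 in turn repress the miR-200 genes. miR-205 is abundant in stratified and glandular epithelia and is also known to act on Zeb1 and Zeb2. ECs are classed among the cells with little of either.

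The guide strands are shown because as few as 2 bases separate members that are counted as different miRs. Of the 12 members, 12 matched a mature miR of RefSeq on GRCm38.p6. The capitals mark the seed, and the guides fall into 3 seed groups. Those of miR-200b, miR-200c and miR-429 share AAUACUG, those of miR-200a and miR-141 share AACACUG, and miR-205 carries CCUUCAU.
miR-200b-3p: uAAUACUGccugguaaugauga
miR-200c-3p: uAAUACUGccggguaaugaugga
miR-429-3p: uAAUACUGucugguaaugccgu
miR-200a-3p: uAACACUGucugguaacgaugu
miR-141-3p: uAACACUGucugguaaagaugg
miR-205-5p: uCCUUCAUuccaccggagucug
Counted from 1 at the 5′ end, miR-200a-3p and miR-141-3p differ at 2 of 22 positions (C17A and U22G, miR-200a base first), and miR-200b-3p and miR-200c-3p differ at 2 of 22 (U11G and A22G). Between miR-200b-3p and miR-205-5p 17 of 22 positions differ.

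The 6 hairpins lie at 3 loci, all on the minus strand of GRCm38.p6. Mir429, Mir200a and Mir200b span 1846 bases of chromosome 4 (chr4:156053905-156055750) and overlap the annotated protein-coding gene Ttll10 on the same strand. Mir141 and Mir200c span 477 bases of chromosome 6 (chr6:124717914-124718390) and overlap the non-coding gene Gm15884. Mir205 stands alone on chromosome 1 (chr1:193507463-193507530) within the long non-coding gene 4631405K08Rik. Members of a locus can be cut from a single primary transcript, so they are given below by locus as well as singly, as the miR-200b cluster (with miR-200a and miR-429), the miR-200c cluster (with miR-141) and miR-205.

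In lung ECs the family was present at a trace. The EC miR libraries held 2015256 to 19288343 counts, with 4 deep libraries of 13781817 or more and 5 shallow ones of 3736821 or fewer. Of the 12 features 9 had a count, and the 12 together had 967 of 82116576 counts, or 11.8 per 1000000 counts. The 6 guide arms took 953 of these and the 6 other arms 14. The arms miR-200a-5p, miR-429-5p and miR-205-3p had 0 counts in all 9 libraries, which allows a share of up to 0.0365 per 1000000 counts (3 counts of the pooled total). For scale, the endothelial miR-126a-3p made up 18.5 to 33.7% of all counts in these libraries.

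Among the guides miR-205-5p averaged highest, at 3.11 ± 4.19 CPM over the 9 libraries (SD; CPM are counts per 1000000, the library total being scaled by TMM, a trimmed mean of log ratios between libraries). It was followed by miR-200c-3p at 2.66 ± 1.76 CPM, miR-200b-3p at 2.06 ± 1.37 CPM and miR-200a-3p at 1.96 ± 0.945 CPM. The lowest were miR-429-3p at 0.776 ± 0.253 CPM and miR-141-3p at 0.526 ± 0.392 CPM. The order of the first 4 was not kept from library to library. miR-205-5p lay above miR-200c-3p in 4 of 9 libraries and miR-200b-3p above miR-200a-3p in 4 of 9, whereas miR-200a-3p lay above miR-429-3p in 8 of 9. By mean CPM miR-205-5p ranked 396 and miR-141-3p ranked 622 among the 1296 miRs with a count. Comparison between miRs of this kind carries the preference of ligases for some ends, which was not measured.

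miR-205-5p had the widest range. Its counts were 35, 2 and 129 in Prog-Tg ECs (replicates 1, 2 and 3), 6, 6 and 48 in LA-Tg ECs and 4, 2 and 4 in WT ECs. These correspond to 1.54, 0.55 and 8.58 CPM in Prog-Tg, 0.36, 2.57 and 11.9 CPM in LA-Tg and 0.25, 0.78 and 1.44 CPM in WT. In both transgenic lines a single library, replicate 3, stood far above the other 2, and the lowest library of each line lay within the range of WT. Replicate 3 was also the highest of the WT libraries. The group means were 3.56 ± 4.38 CPM in Prog-Tg, 4.94 ± 6.12 CPM in LA-Tg and 0.823 ± 0.594 CPM in WT (SD, n = 3 each). The same 2 libraries had the lowest share of miR-126a-3p, 18.9% in Prog-Tg replicate 3 and 18.5% in LA-Tg replicate 3, against 23.6 to 33.7% in the other 7. Whether the cell content of these 2 cultures had a part in this was not tested.

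At such counts miR-205-5p did not pass the filter on low counts that precedes the test (filterByExpr of edgeR, minimum count 10). When every miR with a count was fitted, it differed by 2.34 on the log2 scale between Prog-Tg and WT (standard error 1.07) and by 2.65 between LA-Tg and WT (standard error 1.08). Unadjusted p was 0.0300 and 0.0156, and p adjusted over all 1296 miRs was 0.873 and 0.975 (edgeR quasi-likelihood test, Benjamini-Hochberg). Of the 1296 miRs 45 and 33 had an unadjusted p under 0.05 in these comparisons. For miR-205-5p Prog-Tg and LA-Tg differed by −0.31 (standard error 0.941, adjusted p = 1.00). In fits chosen after the data were seen, the Prog-Tg versus WT difference was 0.89 (adjusted p = 0.904) without Prog-Tg replicate 3, and the LA-Tg versus WT difference was 0.51 (adjusted p = 1.00) without LA-Tg replicate 3. The size of both differences thus rested on these libraries.

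**Figure D1:**
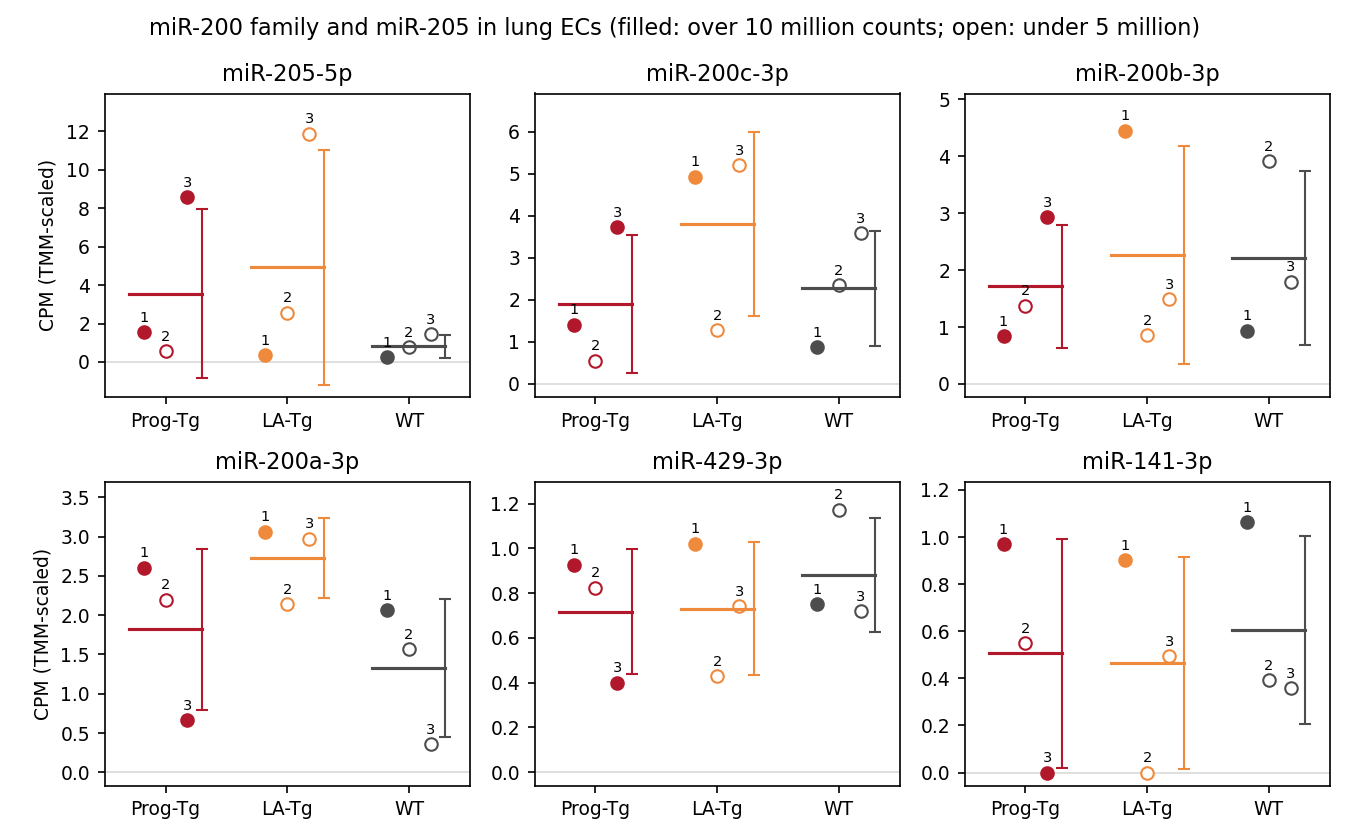
Levels of the 6 guide arms in lung ECs, in TMM-scaled CPM on the vertical axis and by genotype on the horizontal axis. Each point is a library with its replicate number, filled for the 4 deep libraries and open for the 5 shallow ones, and each bar is the mean with its SD (n = 3). miR-205-5p reaches 8.58 CPM in Prog-Tg replicate 3 and 11.9 CPM in LA-Tg replicate 3 and stays at or below 2.57 CPM in the other 7 libraries.

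Of the members miR-200c-3p, of the miR-200c cluster, most often reached 10 counts in ECs (6 of 9 libraries). It had 32, 2 and 56 counts (1.41, 0.55 and 3.72 CPM) in Prog-Tg ECs, 82, 3 and 21 counts (4.93, 1.28 and 5.20 CPM) in LA-Tg ECs and 14, 6 and 10 counts (0.88, 2.35 and 3.59 CPM) in WT ECs. All 3 ranges overlap. Its cluster partner miR-141-3p had 22, 2 and 0 counts in Prog-Tg, 15, 0 and 2 in LA-Tg and 17, 1 and 1 in WT. A count of 10 or more of miR-141-3p was thus reached only in replicate 1 of each genotype, all among the 4 deepest libraries, and Prog-Tg replicate 3, also deep, had 0.

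In the miR-200b cluster, miR-200a-3p had 59, 8 and 10 counts (2.60, 2.20 and 0.67 CPM) in Prog-Tg ECs, 51, 5 and 12 counts (3.06, 2.14 and 2.97 CPM) in LA-Tg ECs and 33, 4 and 1 counts (2.06, 1.56 and 0.36 CPM) in WT ECs. All LA-Tg libraries lay above all WT libraries for miR-200a-3p, by 2.14 against 2.06 CPM at the nearest pair. Without TMM scaling this pair was reversed, at 1.51 CPM in LA-Tg replicate 2 and 1.79 CPM in WT replicate 1. miR-200b-3p had 19, 5 and 44 counts (0.84, 1.37 and 2.93 CPM) in Prog-Tg, 74, 2 and 6 counts (4.45, 0.86 and 1.49 CPM) in LA-Tg and 15, 10 and 5 counts (0.94, 3.91 and 1.80 CPM) in WT. miR-429-3p stayed between 0.40 and 1.17 CPM in all 9 libraries. The passenger arms of the chromosome 4 and 6 loci were seen in the deepest libraries only: miR-200b-5p with 1 count in Prog-Tg replicate 1 and 6 in LA-Tg replicate 1, miR-141-5p with 2 and 4 in the same libraries, and miR-200c-5p with 1 in WT replicate 1.

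In ECs 3 members, among 446 miRs kept, passed the filter and were tested between genotypes. At an adjusted p under 0.05 none of the 3 was called in Prog-Tg versus WT, LA-Tg versus WT or Prog-Tg versus LA-Tg, where 0% of the 446 were called in each. At an unadjusted p under 0.05, also 0 of 3 passed, beside 1.35%, 0.673% and 0.673% of all miRs tested in these comparisons. For Prog-Tg versus WT the log2 fold change was 0.35 for miR-200a-3p (standard error 0.770), −0.28 for miR-200b-3p (0.869) and −0.13 for miR-200c-3p (0.875), where the edgeR adjusted p stood at 0.980, 0.993 and 0.998. In LA-Tg against WT it was 0.96 (0.776), 0.20 (0.863) and 0.85 (0.876), each with an adjusted p of 0.971. Prog-Tg against LA-Tg gave −0.61 (0.751), −0.48 (0.836) and −0.98 (0.842), each with an adjusted p of 0.982. The comparisons share libraries, so they are not independent of each other. Of these 9 pairs of groups only LA-Tg and WT for miR-200a-3p did not overlap. That is 1 of 3 members, beside 5.83% of all miRs higher in LA-Tg without overlap. For the other directions the share of all miRs without overlap was 1.12% (lower in LA-Tg than WT), 1.79% and 4.93% (higher and lower in Prog-Tg than WT) and 1.35% and 4.04% (higher and lower in Prog-Tg than LA-Tg). The separation of miR-200a-3p rested on the TMM scaling. In CPM without it, LA-Tg replicate 2 had 1.51 and WT replicate 1 had 1.79, so the groups overlapped. By such unscaled values miR-200a-3p passed the filter through Prog-Tg replicate 1 (3.06) and LA-Tg replicates 1 and 3 (3.54 and 3.32). No WT library exceeded 1.79, so its values against WT are a description. Each of the 9 estimates, taken with 2 standard errors, includes a change of 2-fold in at least 1 direction, and in simulated data of the same spread 36 of 74 miRs changed by 2 on the log2 scale were recovered. These 74 were drawn from all 446 miRs kept. The 3 members ranked only 413, 439 and 446 of 1296 by mean CPM, so this recovery need not hold for them.

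Summed by locus, the miR-200b cluster level was 4.27 ± 0.238 CPM in Prog-Tg, 5.84 ± 2.79 CPM in LA-Tg and 4.42 ± 1.97 CPM in WT ECs, and that of the miR-200c cluster was 2.43 ± 1.31, 4.35 ± 2.66 and 2.90 ± 0.983 CPM in the same order (SD, n = 3). Over the 9 libraries the log2 sums of these 2 loci correlated with Pearson's r = 0.47 (exact permutation p = 0.206, adjusted p = 0.488) and Spearman's rho = 0.42 (exact permutation p = 0.270, adjusted p = 0.776). Pearson's r was 0.19 without the 2 libraries farthest from the median and 0.40 within genotypes. The miR-200c cluster and miR-205 gave r = 0.37 (exact permutation p = 0.326, adjusted p = 0.488) and rho = 0.20 (exact permutation p = 0.613, adjusted p = 0.776), with r = 0.43 without the 2 farthest libraries and 0.39 within genotypes. The miR-200b cluster and miR-205 gave r = −0.20 (exact permutation p = 0.623, adjusted p = 0.623) and rho = −0.12 (exact permutation p = 0.776, adjusted p = 0.776), with r = 0.41 without the 2 farthest and −0.38 within genotypes. All tests were two-sided and adjusted over these 3 relations, and none of them passed at an adjusted p under 0.05. Libraries of different depth enter all 3 relations.

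Of the 443 other miRs kept in ECs, those most like the miR-205 level over the 9 libraries were miR-501-3p (Pearson's r = 0.90), miR-6240 (0.90) and miR-501-5p (0.88). Those most like the miR-200c cluster were miR-29b-2-5p (0.89), miR-181a-2-3p (0.87) and miR-6975-3p (0.86), and those most like the miR-200b cluster were miR-191-3p (0.70), miR-467c-5p (0.59) and miR-26a-2-3p (0.59). These are the highest of 443 values over libraries that share depth and genotype, and are given as a description. The rank correlation was 0.67 for miR-501-3p with miR-205 and 0.22 for miR-26a-2-3p with the miR-200b cluster, and 0.65 to 0.92 for the other 7.

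Plasma showed another pattern, in which a member was in most libraries at 0 and in a few at 267 to 1399 counts, with only 2 values (2 and 8 counts) in between. The plasma libraries held 14922120 to 25373495 counts, but the 4 features of miR-486, a miR of red blood cells, took 92.3 to 98.1% of each. The feature miR-486a-5p alone took 23.1 to 24.5%. Whether the same read was counted under several of the 4 features was not tested. If so, the library totals of plasma and medium are too high, and shares of these totals shift with them. miR-200a-3p had 1399, 0 and 0 counts in Prog-Tg plasma, 267, 0 and 0 in LA-Tg plasma and 2, 440 and 0 in WT plasma. miR-141-3p had 8, 0 and 0 counts in Prog-Tg, 0 in all LA-Tg and 532, 0 and 0 in WT. miR-200c-3p was counted only in LA-Tg replicate 1 (303), miR-205-5p only in WT replicate 1 (358) and miR-429-3p only in WT replicate 2 (430). The 12 features were all at 0 in 5 of the 9 libraries, Prog-Tg replicates 2 and 3, LA-Tg replicates 2 and 3 and WT replicate 3.

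miR-200b-3p, encoded beside miR-200a and miR-429, had 0 of 177220703 plasma counts, which allows a share of up to 0.0169 per 1000000 counts. Members of a locus did not appear together as a rule. In WT replicate 2 miR-200a-3p and miR-429-3p had 440 and 430 counts while miR-200b-3p had 0, and in Prog-Tg replicate 1 miR-200a-3p had 1399 while both neighbours had 0. In LA-Tg replicate 1 miR-200c-3p had 303 counts and its partner miR-141-3p had 0, and in WT replicate 1 the reverse held, 532 of miR-141-3p with 0 of miR-200c-3p. The near-identical pair of miR-200a-3p and miR-141-3p was found together in 2 plasma libraries, each time with one of them at a trace. miR-141-3p made up 0.569% of the pair in Prog-Tg replicate 1 (exact 95% interval 0.246 to 1.12%) and miR-200a-3p made up 0.375% in WT replicate 1 (0.0454 to 1.35%). The part of reads assigned to the wrong member of the pair was not tested.

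Such on and off counts were common among plasma miRs. Of the 283 miRs with a plasma count 58 (20.5%) were seen in all 9 libraries, and 178 (62.9%) were seen in 4 or fewer. The nonzero values of these 178 had a median of 281 counts, and 66.9% of them were 100 or more. In ECs the 474 miRs seen in 4 or fewer libraries had a median nonzero value of 2 counts, and 0 of 1055 such values reached 100. The members therefore behaved as most sparse plasma miRs did. The number of distinct molecules behind such counts is unknown, as no collapsing by molecular identifiers is described for these libraries.

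**Figure D2:**
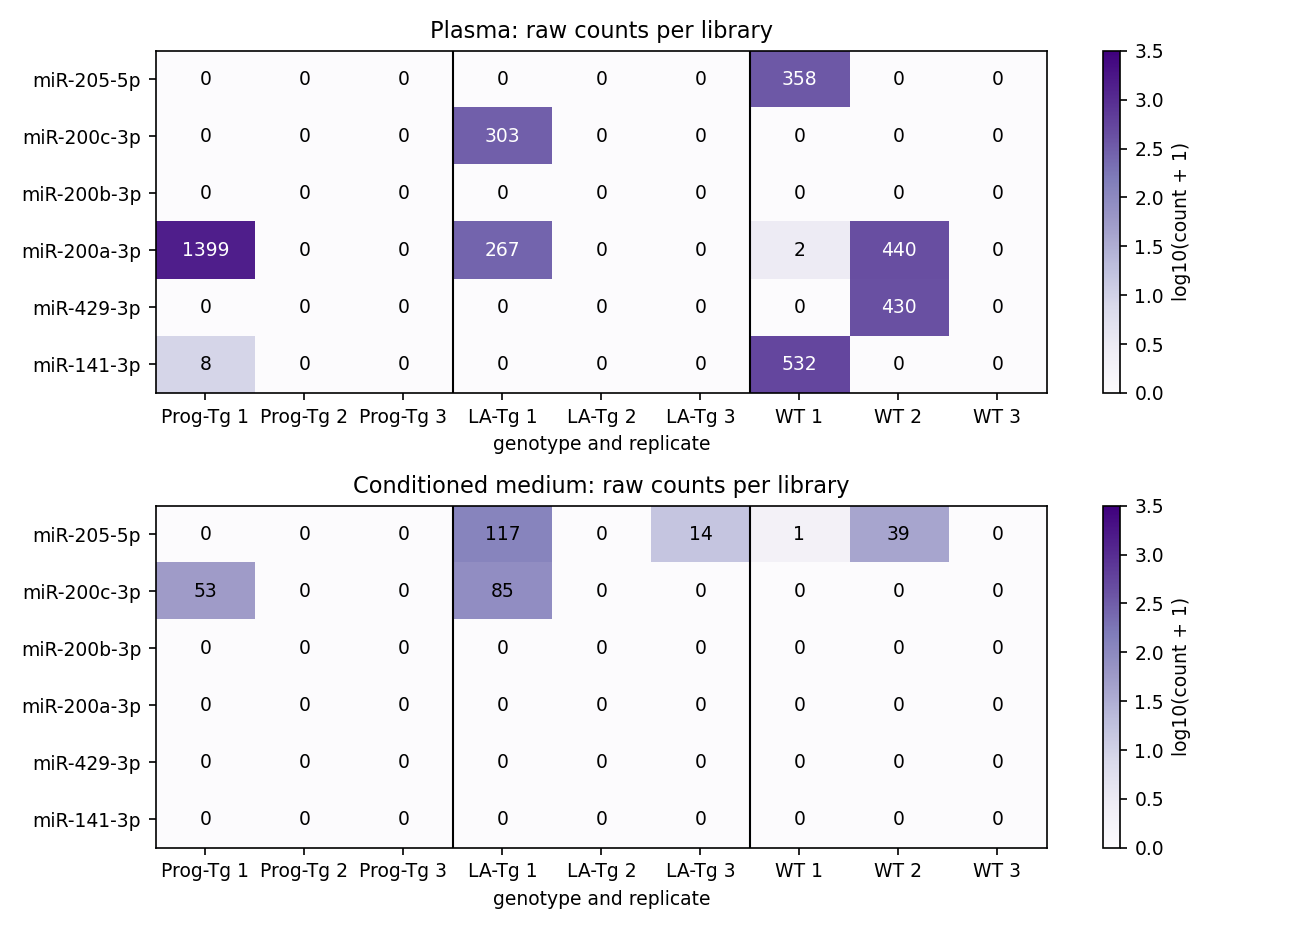
Raw counts of the 6 guide arms in each plasma library (upper panel) and each library of conditioned medium (lower panel), with the genotype and replicate along the horizontal axis and the shade giving log10(count + 1). In plasma 5 of 9 libraries hold 0 counts of every member, and in medium only miR-205-5p and miR-200c-3p have counts.

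In plasma miR-200a-3p alone among the members passed the filter, 1 of 118 miRs. On the log2 scale Prog-Tg differed from WT by 0.13 (standard error 4.18), LA-Tg from WT by −1.41 (4.26) and Prog-Tg from LA-Tg by 1.54 (4.27). The edgeR adjusted p was 0.992, 1.00 and 0.993. At an adjusted p under 0.05 the member was called in 0 of the 3, where 0% of all plasma miRs were called, and at an unadjusted p under 0.05 likewise, beside 4.24%, 4.24% and 5.08%. The mean level was 11.1 ± 19.2 CPM in Prog-Tg, 3.81 ± 6.61 CPM in LA-Tg and 10.1 ± 17.4 CPM in WT (SD, n = 3). Each of these means was set by 1 library. Without Prog-Tg replicate 1 the log2 fold change for Prog-Tg versus WT was −10.6, and without WT replicate 2 it was 7.69, so no direction can be given. In simulated plasma data 0 of 20 miRs changed by 2 and 2 of 19 changed by 4 on the log2 scale were recovered, which shows how little these libraries can resolve.

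In conditioned medium 2 members had counts. The medium libraries were shallow, with 266683 to 1137332 counts. miR-205-5p had 0, 0 and 0 counts in Prog-Tg medium, 117, 0 and 14 in LA-Tg medium and 1, 39 and 0 in WT medium. miR-200c-3p had 53, 0 and 0 counts in Prog-Tg medium, 85, 0 and 0 in LA-Tg medium and 0 in all WT medium. The other 10 features had 0 of 5432964 counts, which allows a share of up to 0.552 per 1000000 counts. At the share they had in ECs, 12.1 counts of miR-200a-3p and 11.9 of miR-200b-3p would have stood among as many medium counts, and 15.6 of miR-205-5p and 15.0 of miR-200c-3p, where 171 and 138 were found. Library kits differed between cells (QIAseq) and medium (CleanTag), so these shares are set side by side without a test. Of all 651 miRs with a medium count, 407 (62.5%) were seen in 4 or fewer libraries. Their nonzero values had a median of 5 counts, and 5 of 713 (0.701%) reached 100, unlike in plasma. Of the nonzero member values only the 1 count in WT replicate 1 lay below that median.

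The medium libraries with the most counts of these members were also those richest in miR-486. The 4 features of miR-486 made up 68.9% of counts in Prog-Tg replicate 1, 64.2% in LA-Tg replicate 1 and 50.6% in WT replicate 2, against 0.807 to 19.7% in the other 6. These 3 libraries held 294 of the 309 family counts, the rest being 14 in LA-Tg replicate 3 and 1 in WT replicate 1. miR-486 itself was near 0 in the cells, at most 0.000878% of counts in an EC library. The same 3 libraries had the fewest miRs with a count, 195 to 223, against 250 to 461 in the other 6. Whether the source of miR-486 in these libraries had a part in the family counts was not tested, and medium without cells was not analysed here.

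**Figure D3:**
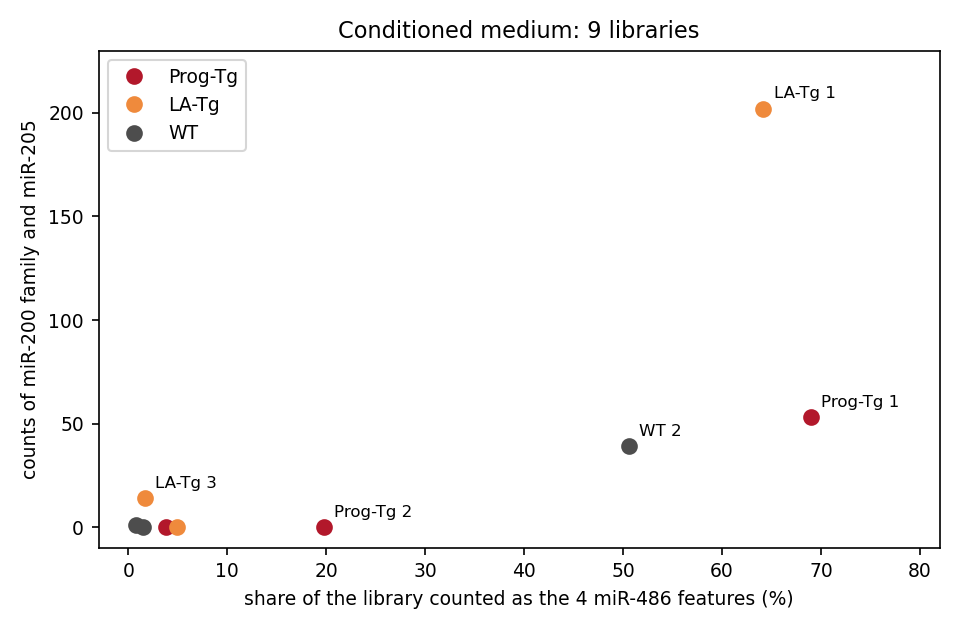
Counts of all 12 members (vertical axis) against the percentage of the library taken by the 4 miR-486 features (horizontal axis) in the 9 libraries of conditioned medium, coloured by genotype. The 3 libraries above 50% hold 53, 202 and 39 counts, and the 6 below 20% hold 14 or fewer.

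When the counts of miR-486 were set aside, a scale chosen after the data were seen, miR-205-5p stood at 287 per 1000000 counts in LA-Tg replicate 1, 24.6 in LA-Tg replicate 3, 1.58 in WT replicate 1 and 152 in WT replicate 2, and miR-200c-3p at 222 in Prog-Tg replicate 1 and 209 in LA-Tg replicate 1. Only miR-205-5p passed the filter in medium, 1 of 255 miRs. At an adjusted p under 0.05 it was called in 0 of the 3 comparisons, where 0% of all medium miRs were called. In the edgeR quasi-likelihood test, at an unadjusted p under 0.05, it passed in Prog-Tg versus LA-Tg, beside 5.88% of all miRs in that comparison, and not in Prog-Tg versus WT or LA-Tg versus WT, beside 1.57% and 3.14%. Unadjusted p was 0.0460, 0.0627 and 0.714 in this order, and p adjusted over all 255 miRs was 0.849, 0.997 and 1.00 (edgeR). With all Prog-Tg libraries at 0, miR-205-5p passed the filter through LA-Tg and WT alone, so the values against Prog-Tg are a description. The pass in Prog-Tg versus LA-Tg was lost with limma-voom, with the replicate block and in 6 of the 9 fits with a library left out, namely each Prog-Tg library, LA-Tg replicates 1 and 3 and WT replicate 1. The groups overlapped in all 3 comparisons. The pooled share was at least 42.2-fold lower in Prog-Tg than in LA-Tg medium (66.0 per 1000000 counts) and at least 16.7-fold lower than in WT medium (26.1 per 1000000 counts), taking 3 counts over the Prog-Tg libraries as the floor. Such a floor covers counting error alone and not the spread between libraries. It describes the pooled counts and sets no limit to a difference between genotypes. LA-Tg replicate 2 and WT replicate 3 were at 0 as well. Without LA-Tg replicate 1 the first bound was 10.6-fold, and without WT replicate 2 only 1 WT count remained and no fold can be given. The LA-Tg over WT log2 fold change was 1.00 (standard error 2.65) and was −1.83 without LA-Tg replicate 1. For miR-200c-3p, with all WT libraries at 0, the pooled share was by the same kind of floor at least 14.1-fold higher in Prog-Tg medium (27.7 per 1000000 counts) and at least 21.9-fold higher in LA-Tg medium (42.9 per 1000000 counts). Each rested on replicate 1 alone, so that without that library both groups are at 0 and no fold can be given.

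Plasma and medium libraries came from the same kit and were fitted together (18 libraries, 334 miRs). Of these miRs 47.3% differed between the fluids at an adjusted p under 0.05, 5.39% being higher in plasma. Of the 3 members kept in this fit miR-200a-3p, at 0 in all 9 medium libraries, passed the filter through plasma alone. Its difference (edgeR adjusted p = 0.0107) is therefore given as a description and does not count as a call. It had 2108 plasma counts in 4 of 9 libraries and 0 medium counts, so its pooled share of 11.9 per 1000000 counts in plasma was at least 21.5-fold higher than the floor of 0.552 per 1000000 counts in medium. Without Prog-Tg replicate 1 the bound was 8.28-fold. The adjusted p was above 0.05 without plasma Prog-Tg replicate 1 and without plasma LA-Tg replicate 1, which leave a genotype at 0 in both fluids, and with limma-voom (adjusted p = 0.177). Plasma minus medium differences for miR-200c-3p and miR-205-5p, and differences between genotypes in them, could not be fitted, since whole genotypes were at 0.

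The mRNA of the same cell type was examined for the known targets of these miRs and for epithelial genes. The mRNA libraries held 17961152 to 67602012 counts. It is not stated whether mRNA and miR libraries of the same number came from one culture. Zeb1, the zinc-finger repressor of E-cadherin, was at 258, 172 and 164 CPM in Prog-Tg ECs, 246, 186 and 207 CPM in LA-Tg ECs and 251, 239 and 213 CPM in WT ECs. It was therefore high in every library, with overlapping groups, and it differed on the log2 scale by −0.24 in Prog-Tg versus WT, −0.14 in LA-Tg versus WT and −0.10 in Prog-Tg versus LA-Tg, each with a standard error of 0.201. Its paralogue Zeb2 varied more, at 32.4, 52.7 and 71.6 CPM in Prog-Tg, 8.95, 60.5 and 17.2 CPM in LA-Tg and 18.9, 7.02 and 37.0 CPM in WT. Zeb2 differed by 1.32 (standard error 0.776), 0.46 (0.767) and 0.86 (0.768) in these comparisons. For both genes adjusted p was 0.830, 1.00 and 0.999 over 14584 genes (edgeR quasi-likelihood test).

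The 3′ untranslated regions of both genes hold many matches to the miR-200 seeds. The sites are shown for Zeb2, on chromosome 2 of GRCm38, minus strand, in transcript ENSMUST00000176438.8 of GENCODE M21, with the match to bases 2 to 8 of the miR in capitals. The first is a match to miR-200b, miR-200c and miR-429, and the second to miR-200a and miR-141.
Zeb2 site at chr2:44987742-44987763: gcacccgtgtCAGTATTagacg
Zeb2 site at chr2:44988353-44988374: aaattttgtaCAGTGTTaaggc
CAGTATT occurred 5 times in the region of Zeb2 (4941 bases) and 5 times in that of Zeb1 (2401 bases), and 3 or more such matches were found in 0.578% of the 12626 genes tested that have an annotated 3′ region. CAGTGTT occurred 4 times in each, and 3 or more were found in 1.22% of the genes. ATGAAGG, the match to miR-205, occurred once in Zeb1 and was not in the annotated region of Zeb2, and at least 1 was found in 12.2% of the genes. The shares of genes are over 3′ regions of every length and were not matched to the lengths of Zeb1 and Zeb2. Only the transcribed strand was searched, and the 3 motifs do not overlap each other. These are matches of letters in an annotated region and not measured binding.

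Of 14 known targets listed, 13 were found and kept. At an adjusted p under 0.05 0 of 13 were called in any comparison, where 0% of all genes were called, and at an unadjusted p under 0.05 also 0 of 13, beside 3.4%, 0.83% and 1.71% of genes in Prog-Tg versus WT, LA-Tg versus WT and Prog-Tg versus LA-Tg. Their median log2 fold change was 0.17 for Prog-Tg versus WT (8 above 0), 0.07 for LA-Tg versus WT (7 above 0) and 0.10 for Prog-Tg versus LA-Tg (8 above 0), with medians of all genes of −0.0080, −0.0055 and −0.0029 and 49%, 49% and 49.6% of all genes above 0. Among the 5 most abundant were Kdr, the main VEGF receptor of ECs (675 ± 400.2 CPM over 9 libraries, SD), the endothelial transcription factor Ets1 (287 ± 66.3 CPM), Zeb1 (215 ± 35.3 CPM) and the coat protein gene Sec23a (173 ± 57.2 CPM).

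Most listed epithelial genes stayed under 1 CPM in all 9 mRNA libraries, but Perp, Krt18, Cldn4 and Krt19 reached 35.1, 12.6, 10.4 and 7.36 CPM. E-cadherin (Cdh1), named after its values were seen, did not exceed 0.217 CPM, and the basal keratin gene Krt14 was at 0 throughout. Of 19 general epithelial genes 11 stayed under 1 CPM in every library, as did 5 of 5 basal genes, 5 of 8 alveolar and airway genes and 4 of 4 mesothelial genes. The basal genes, which include Trp63 and Krt5 of the epithelia where miR-205 is abundant, summed to 0.164 to 0.592 CPM in Prog-Tg, 0.0779 to 0.813 CPM in LA-Tg and 0.0305 to 0.144 CPM in WT ECs. The 19 general genes summed to 23.9 to 55.1 CPM in Prog-Tg, 18.1 to 52.6 CPM in LA-Tg and 11.3 to 24.7 CPM in WT. Against this, the 8 endothelial genes summed to 5234 to 7468 CPM in Prog-Tg, 7432 to 8329 CPM in LA-Tg and 6942 to 7568 CPM in WT, with Cdh5 between 1469 and 4040 CPM. By mean level Cdh5 was followed by Pecam1 (1717 CPM), Tie1 (1060 CPM), Egfl7 (879 CPM) and Kdr. Of the alveolar and airway genes Ager of alveolar type 1 cells averaged highest (1.98 ± 0.647 CPM over 9 libraries, SD), followed by Foxj1, by Hopx (0.693 ± 0.282 CPM) and by Sftpc and Nkx2-1, which did not exceed 0.116 and 0.0522 CPM. The basal genes Cdh3 and Krt15 and the mesothelial genes Upk3b, Lrrn4, Msln and Wt1 did not exceed 0.580 CPM. The labelled cell type thus had its defining markers, and a trace of miR-200 and miR-205 stood beside epithelial mRNA that was low for most listed genes.

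Of the general epithelial genes Perp, a p53 target of desmosomes and cell death, averaged highest (2.74 to 35.1 CPM), followed over the 9 libraries by the keratin Krt18 at 6.99 ± 3.63 CPM, the claudin Cldn4 at 4.56 ± 3.49 CPM, Krt19 at 2.58 ± 2.14 CPM and stratifin (Sfn) at 1.46 ± 0.455 CPM. Perp had 7.63, 30.7 and 15.3 CPM in Prog-Tg ECs, 4.49, 35.1 and 4.65 CPM in LA-Tg ECs and 3.87, 2.74 and 3.39 CPM in WT ECs. Both transgenic lines lay above WT for Perp without overlap, as did 6.56% of all genes in Prog-Tg and 1.92% in LA-Tg. The log2 fold changes were 2.42 in Prog-Tg (standard error 0.869) and 2.14 in LA-Tg (0.862). Unadjusted p was 0.0228 and 0.0369, and p adjusted over all genes was 0.830 and 1.00 (edgeR). No general epithelial gene was called at an adjusted p under 0.05, and Perp was the 1 of 7 tested with an unadjusted p under 0.05 in these 2 comparisons, beside 3.4% and 0.83% of all genes. Of the 7 tested, 6, 5 and 7 lay above 0 in Prog-Tg versus WT, LA-Tg versus WT and Prog-Tg versus LA-Tg, beside 49%, 49% and 49.6% of all genes. Among the 3 alveolar and airway genes tested, Foxj1 of ciliated cells was lower in Prog-Tg at an unadjusted p under 0.05 (edgeR), with log2 fold changes of −2.89 versus WT and −2.58 versus LA-Tg at levels of 0.0545 to 2.79 CPM. At that p 3.4% and 1.71% of all genes passed in these 2 comparisons. Its p adjusted over all genes was 0.830 and 0.999. At a mean of 0.151 CPM in Prog-Tg, Foxj1 was kept by the filter through LA-Tg and WT alone, so its values against Prog-Tg are a description. Of the 8 endothelial genes 0 had an unadjusted p under 0.05 (edgeR) in Prog-Tg versus WT, LA-Tg versus WT or Prog-Tg versus LA-Tg, beside 3.4%, 0.83% and 1.71% of all genes. In this order 1, 3 and 1 of the 8 lay above 0, and 7, 5 and 7 below, beside 49%, 49% and 49.6% of all genes above 0. Their median log2 fold change was −0.53 in Prog-Tg versus WT, −0.05 in LA-Tg versus WT and −0.41 in Prog-Tg versus LA-Tg. The medians of all genes were −0.0080, −0.0055 and −0.0029.

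Perp peaked in replicate 2 of the transgenic lines and miR-205-5p in replicate 3. The sum of the 19 general epithelial genes was 23.9, 55.1 and 48.2 CPM in Prog-Tg (replicates 1, 2 and 3), 20.2, 52.6 and 18.1 CPM in LA-Tg and 24.7, 11.3 and 20.8 CPM in WT. That of the 5 basal genes was 0.275, 0.164 and 0.592 CPM in Prog-Tg, 0.0779, 0.813 and 0.250 CPM in LA-Tg and 0.0305, 0.144 and 0.0522 CPM in WT. Replicate 3 was the highest in no genotype for the general sum and in Prog-Tg alone for the basal sum. For miR-205-5p in CPM it was the highest in each genotype. The general sum leaned on Perp, which took 35.1 of the 52.6 CPM in LA-Tg replicate 2. With Perp set aside, replicate 3 had the highest general sum in Prog-Tg, and the highest library stayed the same in LA-Tg and WT. Since mRNA and miR libraries of the same number may not share a culture, these orders cannot be matched library by library. The 8 endothelial genes had their lowest sum, 5234 CPM, in Prog-Tg replicate 3, but summed to 8080 CPM in LA-Tg replicate 3. The part of epithelial cells in the level of miR-205-5p in these libraries was not tested.

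**Figure D4:**
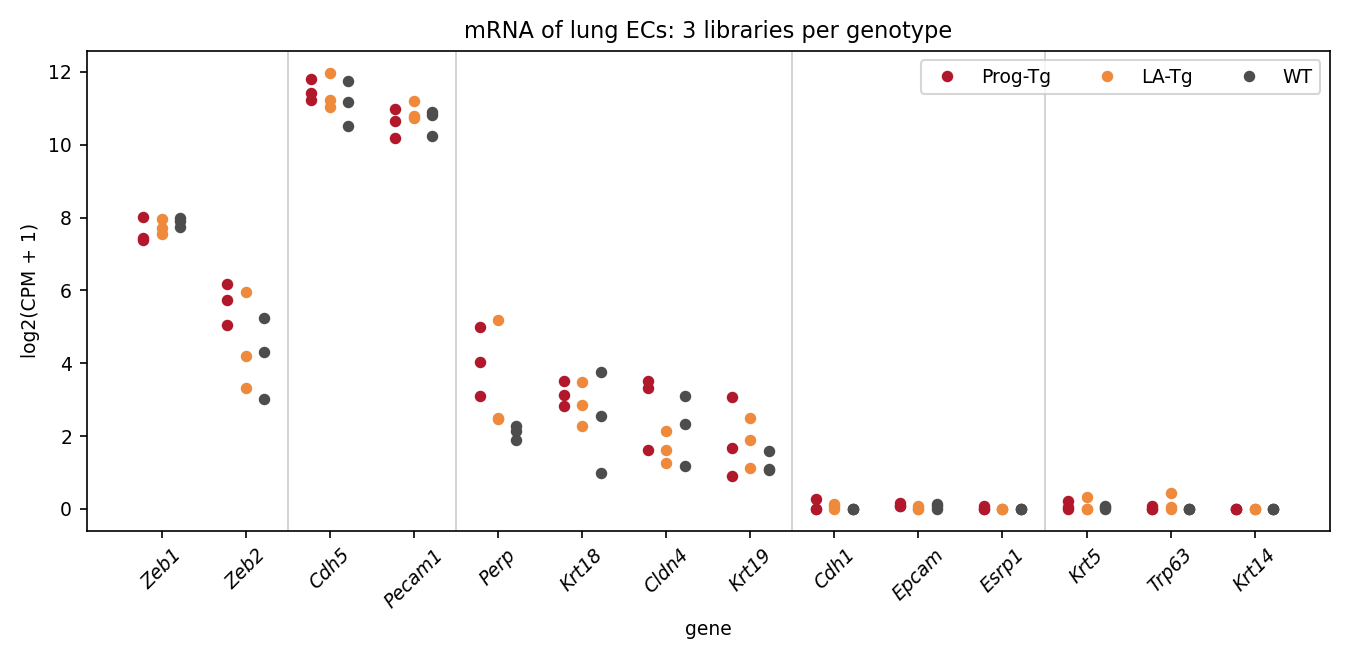
Levels of 14 genes in the mRNA of lung ECs as log2(CPM + 1), with 3 libraries per genotype drawn as points. Vertical lines separate the targets Zeb1 and Zeb2, the endothelial genes Cdh5 and Pecam1, the 4 most abundant general epithelial genes, the general epithelial genes Cdh1, Epcam and Esrp1, and the basal genes Krt5, Trp63 and Krt14. Cdh1, Epcam and Esrp1 were chosen after their values were seen and do not stand for the whole list. Esrp2 of the same list, not drawn, averaged 0.381 CPM in Prog-Tg, 0.359 CPM in LA-Tg and 1.29 CPM in WT. Zeb1 lies between 164 and 258 CPM in every library, and Cdh1 does not exceed 0.217 CPM.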

How the data were processed

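The authors had used STAR 2.5.1b (2-pass) on GRCm38 and HTSeq 0.5.4p3, and the deposited values are raw counts per miR or gene. Gencode v4 is named for the alignment. The treatment of reads with several positions, the strand setting and any collapsing of reads by identifiers are not given in the sources used here, and intervals and floors (3 counts over a group) cover counting error only. Deposited tables of the authors' own comparisons, which hold fold changes and p-values, were not used.

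Groups are the genotypes of the labels. In each experiment all 9 libraries were fitted by genotype in R 4.3.3 with edgeR 4.0.16: filterByExpr (minimum count 10, minimum total 15), TMM, and the quasi-likelihood F test with Benjamini-Hochberg adjustment over all features kept, at 0.05. The steps were tested on simulated data. Correlations used log2(CPM + 1) and exact permutation tests (scipy 1.17.1). The study calls its EC mRNA libraries biological replicates, and its methods describe plasma from Prog-Tg and WT littermate pairs and EC experiments on different primary cells of littermate pairs. The labels do not tie single libraries to animals.

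Same-numbered libraries deviated together in EC miR, with correlations of 0.66, 0.58 and 0.44 between Prog-Tg and WT and 0.54, 0.78 and 0.71 between Prog-Tg and LA-Tg, and in EC mRNA with 0.74, 0.69 and 0.30 between Prog-Tg and LA-Tg. Other pairs were less alike, with 0.23, 0.55 and 0.01 between LA-Tg and WT in EC miR. In EC mRNA the values were 0.50, −0.03 and 0.47 between Prog-Tg and WT and 0.37, −0.38 and −0.15 between LA-Tg and WT. Medium and plasma ranged from −0.35 to 0.40. The methods describe littermate pairs but neither they nor the labels tie a replicate number to a litter. The main fits therefore used genotype alone, and the replicate number as a block was run as an alternative.

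The genes named are all members, Zeb1 and Zeb2, the 5 most abundant genes of each list and the 3 miRs most like each locus. Cdh1, Epcam, Esrp1 and Esrp2 of the general epithelial list were added after their values were seen. A named gene of these lists is not reported here. Members and lists were chosen with earlier results of these data known. The alternatives were DESeq2 1.42.0, limma-voom (limma 3.58.1), no filter, RLE scaling, library size alone, a replicate block and each library left out. A depth term in EC miR, the fits of miR-205-5p without replicate 3 and levels without miR-486 were chosen after seeing the data. Sequences are from RefSeq and GENCODE M21.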

Additional observations from a re-analysis of the deposited data

How the results depend on the processing

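0 members were called between genotypes at an adjusted p under 0.05 under any alternative run in ECs, medium or plasma. In EC mRNA 0 of the target, general epithelial, basal, and alveolar and airway genes were called. The mesothelial and endothelial lists were not counted under the alternatives. At an unadjusted p under 0.05 the number of members called in ECs went to 1 without the filter in Prog-Tg versus WT and in LA-Tg versus WT (miR-205-5p in both), beside 45 and 33 of all 1296 miRs. In medium the number of members went to 1 with DESeq2 (9 of all 255 miRs) and 2 without the filter (22 of 651) in Prog-Tg versus WT. It went to 1 without the filter in LA-Tg versus WT (9 of 651). In Prog-Tg versus LA-Tg it went to 0 with limma-voom (5 of 255), 0 with the replicate block (1 of 255) and 0 to 1 with a library left out (0 in 6 of 9 fits). Only miR-205-5p and miR-200c-3p had medium counts, each with a whole genotype at 0, so these medium passes are a description.

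Among single members the direction changed for EC Prog-Tg versus WT miR-200c-3p with limma-voom (0.25), and for plasma Prog-Tg versus WT miR-200a-3p with limma-voom (−0.96) and the replicate block (−5.49). With a library left out, log2 fold changes in ECs ran for Prog-Tg versus WT from −0.077 to 0.92 (miR-200a-3p), −0.92 to 0.41 (miR-200b-3p) and −0.99 to 0.40 (miR-200c-3p), for LA-Tg versus WT from −0.80 to 0.89 (miR-200b-3p) and for Prog-Tg versus LA-Tg from −1.04 to 0.52 (miR-200b-3p). For EC miR-205-5p, fitted without the filter, Prog-Tg versus LA-Tg turned to 1.80 without LA-Tg replicate 3 (chosen after seeing the data). In medium LA-Tg versus WT miR-205-5p ran from −1.83 to 6.41. In plasma miR-200a-3p ran from −10.6 to 7.69 (Prog-Tg versus WT), −10.8 to 6.68 (LA-Tg versus WT) and −9.19 to 10.9 (Prog-Tg versus LA-Tg). In EC mRNA Zeb2 in LA-Tg versus WT ran from −0.69 to 1.15 and Zeb1 in Prog-Tg versus LA-Tg from −0.34 to 0.013. The cause was not tested. The plasma minus medium difference of miR-200a-3p, 9.78 on the fitted log2 scale, was 1.96 with limma-voom and 6.26 to 10.0 with a library left out. This scale is no bound, since medium was at 0.

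The replicate block changed no other call. With it Prog-Tg versus WT differed in ECs by 0.35, −0.25 and −0.25 for miR-200a-3p, miR-200b-3p and miR-200c-3p. With the depth group as a term these were 0.32, −0.51 and −0.31. Over all miRs the counts of calls at an unadjusted p under 0.05 in ECs went from 6 to 32, 3 to 14 and 3 to 27 with the block. Scaling by library size alone put the median of all miRs in Prog-Tg versus WT at 0.21 in ECs, −0.61 in medium and 0.86 in plasma, against 0.01, −0.20 and −0.0055 with TMM. Plasma miRs called at an adjusted p under 0.05 numbered 19, 9 and 14 with DESeq2, against 0 with edgeR, and none of these calls was a member. Depth is a limit, since miR-141-3p had 22 counts in Prog-Tg EC replicate 1, which is 2.30 at the total of the shallowest EC library. A count of 10 or more in place of 1 leaves miR-205-5p detected in 3 of 9 EC libraries in place of 9.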
